A study of Mus musculus with 2 samples.

Results

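Genes of mitosis and chromosome segregation, 55 in all, were compared in droplet scRNA-Seq libraries of hepatocytes from undamaged mouse liver and from liver 48 h after partial hepatectomy. They are a fixed list, chosen with earlier results of these data known and looked up by symbol among the 27998 gene rows of the files. Each of the 55 was found on 1 row. Per the labels, cells came from C57BL/6 mice, 10 to 12 weeks old and on normal diet, while the methods of the study name male C57BL/6J mice of a somewhat lower age at hepatectomy. Cells were freed by a two-step collagenase perfusion that is meant to yield hepatocytes. The undamaged group (0 h) and the group taken 48 h after partial hepatectomy (PHx48h), an operation that removes most of the liver and sets off its regrowth, each consist of 1 library from 1 preparation of cells. With 1 library per group there is no replicate check, and every interval given is a 95% interval that covers counting error only.

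Mitosis separates duplicated chromosomes in an ordered series of steps. CDK1 bound to cyclin A or B starts it, Aurora and Polo-like kinases build the spindle, the kinetochore ties each chromosome to spindle fibres under the watch of the spindle checkpoint, and the anaphase-promoting complex with CDC20 and UBE2C then destroys cyclin B and securin so that the cell can exit and divide. Most adult hepatocytes are outside the cell cycle, and hepatocytes with chromosome sets beyond the usual pair, or with more than a single nucleus, are common in the mouse liver.

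The undamaged library held 59202 barcodes and 96118593 UMIs (counted RNA molecules), and the PHx48h library held 1586 barcodes and 18198719 UMIs. Median non-mitochondrial depth was 1415 UMIs per barcode at 0 h and 5204.5 at PHx48h. The study's own filters kept far fewer undamaged cells. How many 0 h barcodes are single intact cells was not tested, so shares of barcodes are not shares of cells. Barcodes were split by the share of UMIs from the 13 mitochondrial genes. High-mitochondrial barcodes (above 30%) numbered 3863 at 0 h and 764 at PHx48h, and low-mitochondrial barcodes (under 2%) numbered 52437 and 516. Barcodes in which macrophage, endothelial, stromal or immune cell markers made up at least 0.5% of UMIs, with 3 or more markers detected, were held apart as non-hepatocyte barcodes, 560 at 0 h and 99 at PHx48h, and both other sets exclude them. Levels are UMIs summed over a set and scaled to 1000000 of its non-mitochondrial UMIs (CPM). Tags at transcript ends were counted, so a level compares the same gene between sets and not different genes with each other. A summed level cannot tell more cells with a transcript from more transcripts per cell. The libraries shared 148 barcode sequences, 9.33% of those at PHx48h. Without them, the members' median log2 ratios described next were 3.63, 3.52 and 3.69 in high-mitochondrial, low-mitochondrial and non-hepatocyte barcodes, and the PHx48h shares of barcodes with 3 or more members were 26.1%, 52.7% and 64.6%.

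Taken as 1 sum, the mitotic genes were far higher at PHx48h in every set. In high-mitochondrial barcodes they made up 185 CPM (174 to 196) at 0 h and 2128 CPM (2088 to 2169) at PHx48h. In low-mitochondrial barcodes the values were 300.3 CPM (296 to 304) and 3431 CPM (3366 to 3497), and in non-hepatocyte barcodes 666 CPM (626 to 709) and 6825 CPM (6625 to 7029). Non-hepatocyte barcodes thus carried the highest summed level at both times, and low-mitochondrial barcodes lay above high-mitochondrial ones at both times. The histone gene H2afz carried a large part of these sums. It alone stood at 60.4 CPM in high- and 156 CPM in low-mitochondrial barcodes at 0 h, and at 411 and 972 CPM at PHx48h. Sums without H2afz were not compared.

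Gene by gene, nearly the whole list was higher at PHx48h. On the log2(CPM + 1) scale, 54 of the 55 genes were at least 2-fold higher at PHx48h in high-mitochondrial barcodes, where 27.9% of the 11044 genes compared were. The comparison kept genes with at least 10 UMIs over both libraries. At least 4-fold higher were 53 members against 5.80% of all genes, and at least 8-fold higher were 41 against 1.52%. The median log2 ratio was 3.62 for the members and 0.50 for all genes. With TMM scaling, which brought the median of all genes to 0.01, that of the members was 3.10. In low-mitochondrial barcodes 54 members could be compared (Kif23, with 5 UMIs at 0 h and 4 at PHx48h, was too low), and 53 were at least 2-fold higher against 17.5% of 12613 genes, with a median of 3.54 against 0.02. In non-hepatocyte barcodes 54 of 55 were at least 2-fold higher against 18.4% of 10740 genes, with a median of 3.75 against 0.12. At least 4-fold higher were 51 and 53 members in these sets against 4.63% and 4.15% of genes, and at least 8-fold higher were 37 and 45 against 1.16% and 1.65%. No member was 2-fold lower in any of the 3 sets, where 4.84%, 14.4% and 14.0% of genes were, and no ratio lay below 0. In high-mitochondrial barcodes many members had few or no UMIs at 0 h and passed the UMI filter only through PHx48h. Such a gene could hardly come out lower, so the lack of lower members is no result for it. Under the alternatives tried for single genes, only Pttg1 had ratios below 0.

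**Figure D1:**
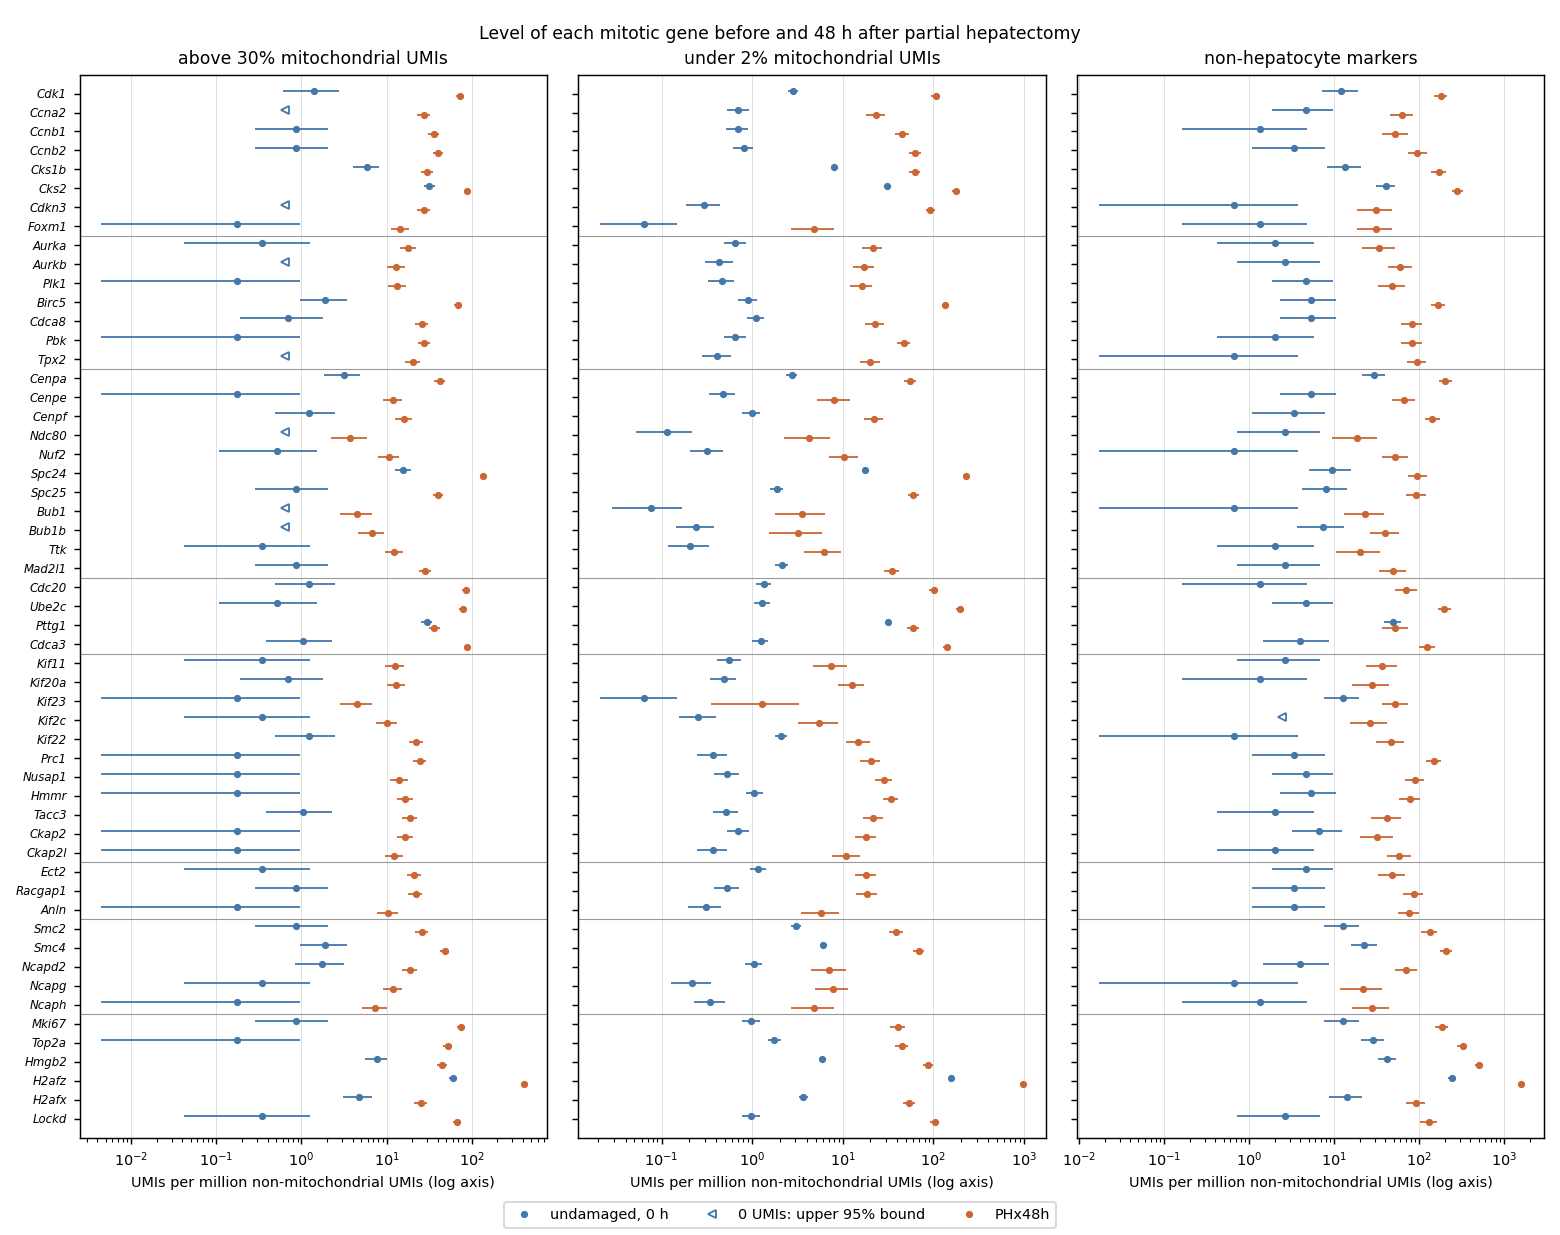
Level of each of the 55 mitotic genes in undamaged (blue) and PHx48h (orange) libraries, in CPM of non-mitochondrial UMIs on a log axis, with 95% counting intervals; open triangles mark genes with 0 UMIs at their upper bound, and grey lines separate the roles in the order in which the text describes them. In all 3 panels the PHx48h points lie to the right of the 0 h points for nearly every gene, and Pttg1 is the exception at which both points lie close together.

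Among the 8 genes of CDK1 and its regulators, the median log2 ratio was 4.38 in high-mitochondrial, 4.30 in low-mitochondrial and 3.77 in non-hepatocyte barcodes. Cdk1 itself, the kinase that starts mitosis, went from 8 UMIs (1.39 CPM) to 370 UMIs (72.6 CPM) in high-mitochondrial barcodes, 52.3-fold (26.3 to 122). It went from 2.82 to 106 CPM in low-mitochondrial barcodes, 37.6-fold (31.6 to 44.8), and from 12.0 to 179 CPM in non-hepatocyte barcodes, 14.8-fold (8.98 to 25.9). The interval in low-mitochondrial barcodes lay above that in non-hepatocyte barcodes under CPM, TMM and size factor scaling, whereas that in high-mitochondrial barcodes overlapped it with TMM (17.8 to 82.7 against 8.05 to 23.2). Ccna2, which encodes cyclin A2, had 0 UMIs among high-mitochondrial barcodes at 0 h and 139 UMIs (27.3 CPM) at PHx48h, at least 52.4-fold higher when 3 UMIs stand for 0. Cdkn3, a phosphatase that acts on CDK1 and CDK2, likewise had 0 and 140 UMIs (27.5 CPM), at least 52.8-fold higher, and in low-mitochondrial barcodes it went from 0.293 to 92.5 CPM, 315-fold (206 to 505). Ccnb1 and Ccnb2, the B-type cyclins, were 41.4-fold (17.4 to 129) and 46.4-fold (19.5 to 144) higher in high-mitochondrial barcodes.

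Cks2, a subunit bound by CDK1, was already at 31.7 CPM in undamaged high-mitochondrial barcodes and reached 88.3 CPM, 2.78-fold (2.34 to 3.32), against 5.67-fold (5.16 to 6.23) in low-mitochondrial and 6.90-fold (5.14 to 9.38) in non-hepatocyte barcodes. These intervals do not overlap between high-mitochondrial barcodes and the other sets. Foxm1, the transcription factor that drives many genes of this list, was rare throughout, with 1 UMI at 0 h and 74 UMIs (14.5 CPM) at PHx48h in high-mitochondrial barcodes, and 5 and 15 UMIs in low-mitochondrial ones.

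All 7 mitotic kinases and chromosomal passenger genes were at least 8-fold higher in all 3 sets. Pbk, a mitotic kinase, went from 1 to 141 UMIs (0.173 to 27.7 CPM) in high-mitochondrial barcodes. Birc5 encodes survivin, a passenger complex subunit, and went from 1.91 to 68.8 CPM, 36.1-fold (19.9 to 72.9). Its fold was far larger in low-mitochondrial barcodes, from 0.893 to 136 CPM, 152-fold (118 to 199). Plk1, the Polo-like kinase, had the smallest log2 ratio of the group at 3.61, from 1 to 68 UMIs. Aurkb and Tpx2, the passenger kinase and the activator of Aurora A, both had 0 UMIs at 0 h among high-mitochondrial barcodes and 66 and 104 at PHx48h, at least 24.9-fold and 39.2-fold higher.

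The 11 kinetochore and checkpoint genes had a lower median (3.01, 3.10 and 3.37 in the same order of sets), and all 11 were at least 2-fold higher in each. Spc25, a subunit of the microtubule-binding NDC80 complex, went from 0.867 to 40.2 CPM in high-mitochondrial barcodes, 46.4-fold (19.5 to 144), and Mad2l1, the checkpoint protein MAD2, from 0.867 to 28.2 CPM, 32.6-fold (13.6 to 102). Ndc80, the namesake of that complex, stayed rare, with 0 and 19 UMIs. Spc24 stood out by its level at 0 h, 15.8 CPM in high-mitochondrial and 17.5 CPM in low-mitochondrial undamaged barcodes. It reached 134 and 229 CPM, 8.51-fold (6.83 to 10.7) and 13.1-fold (11.9 to 14.3).

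The 4 genes of anaphase and mitotic exit held both ends of the list. Ube2c, which encodes the E2 enzyme of the anaphase-promoting complex, had the highest log2(CPM + 1) ratio of the list in high- and low-mitochondrial barcodes. It went from 3 to 400 UMIs (0.520 to 78.4 CPM, log2 ratio 5.71) in high-mitochondrial barcodes and from 101 to 603 UMIs (1.29 to 194 CPM, log2 ratio 6.42) in low-mitochondrial ones, 151-fold in either. Cdca3, a trigger of mitotic entry, went from 1.04 to 88.5 CPM and from 1.24 to 141 CPM, and Cdc20, the activator of the same complex, from 1.21 to 85.1 CPM and from 1.34 to 101 CPM. Pttg1 encodes securin, the inhibitor of separase that CDC20 targets for destruction, and it was the lowest member in every set. It was at 29.5 CPM (170 UMIs) at 0 h and 36.3 CPM (185 UMIs) at PHx48h in high-mitochondrial barcodes, 1.23-fold (0.994 to 1.52), at 31.6 and 59.9 CPM in low-mitochondrial barcodes, 1.90-fold (1.63 to 2.20), and at 48.8 and 52.4 CPM in non-hepatocyte barcodes, 1.07-fold (0.692 to 1.63). Its log2 ratios of 0.29 and 0.10 in high-mitochondrial and non-hepatocyte barcodes turned to -0.253 and -0.0560 when libraries were scaled by TMM, and the first to -0.12 with the set limited to barcodes above 50% mitochondrial UMIs, so no direction is given for it there. Pttg1, Cks1b, Cks2, Hmgb2 and H2afz have near-identical copies or pseudogenes in the genome, and their levels are uncertain where reads could belong to either.

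Among 11 spindle and kinesin genes the medians were 3.40, 3.34 and 3.82. Prc1, which bundles microtubules at the midzone, went from 1 to 125 UMIs (0.173 to 24.5 CPM) in high-mitochondrial barcodes, and Hmmr, a spindle assembly factor, from 1 to 84 UMIs, as did Ckap2, another spindle protein. Kif23, the kinesin of the central spindle, was lowest of the group there, from 1 to 23 UMIs, and in non-hepatocyte barcodes it went from 12.7 to 52.4 CPM, 4.12-fold (2.28 to 7.64). The 3 cytokinesis genes Ect2, Racgap1 and Anln, which set up and close the contractile ring, had log2 ratios of 4.03, 3.62 and 3.28 in high-mitochondrial barcodes. The 5 condensin genes, whose products compact chromosomes, had medians of 3.24, 2.84 and 3.62. Smc4, a core condensin subunit, was 25.3-fold higher (13.9 to 51.3) in high-mitochondrial barcodes, from 1.91 to 48.2 CPM, and 11.3-fold higher (9.60 to 13.3) in low-mitochondrial barcodes, from 6.08 to 68.9 CPM. Smc2, its partner, went from 0.867 to 26.1 CPM in high-mitochondrial barcodes, and Ncaph, the subunit that closes the condensin ring, had the lowest ratio of the group, from 1 to 37 UMIs.

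Of the 6 chromatin genes and proliferation markers, Mki67, which coats mitotic chromosomes, went from 0.867 to 74.7 CPM in high-mitochondrial barcodes, 86.1-fold (36.6 to 267), from 0.969 to 40.3 CPM in low-mitochondrial barcodes, 41.6-fold (31.0 to 56.0), and from 12.7 to 183 CPM in non-hepatocyte barcodes, 14.4-fold (8.84 to 24.8). Top2a, the topoisomerase that untangles sister chromatids, went from 1 to 269 UMIs (0.173 to 52.8 CPM) in high-mitochondrial barcodes and from 1.76 to 44.8 CPM, 25.4-fold (19.96 to 32.4), in low-mitochondrial ones. Lockd, a long intergenic RNA downstream of Cdkn1b, went from 2 to 343 UMIs (0.347 to 67.3 CPM). The histone gene H2afz was abundant at 0 h as well, at 60.4, 156 and 241 CPM, and reached 411, 972 and 1572 CPM, 6.21-fold to 6.81-fold in the 3 sets. H2afx, the histone variant that marks DNA breaks, had the lowest ratio of this group in high-mitochondrial barcodes, from 4.68 to 25.3 CPM.

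**Figure D2:**
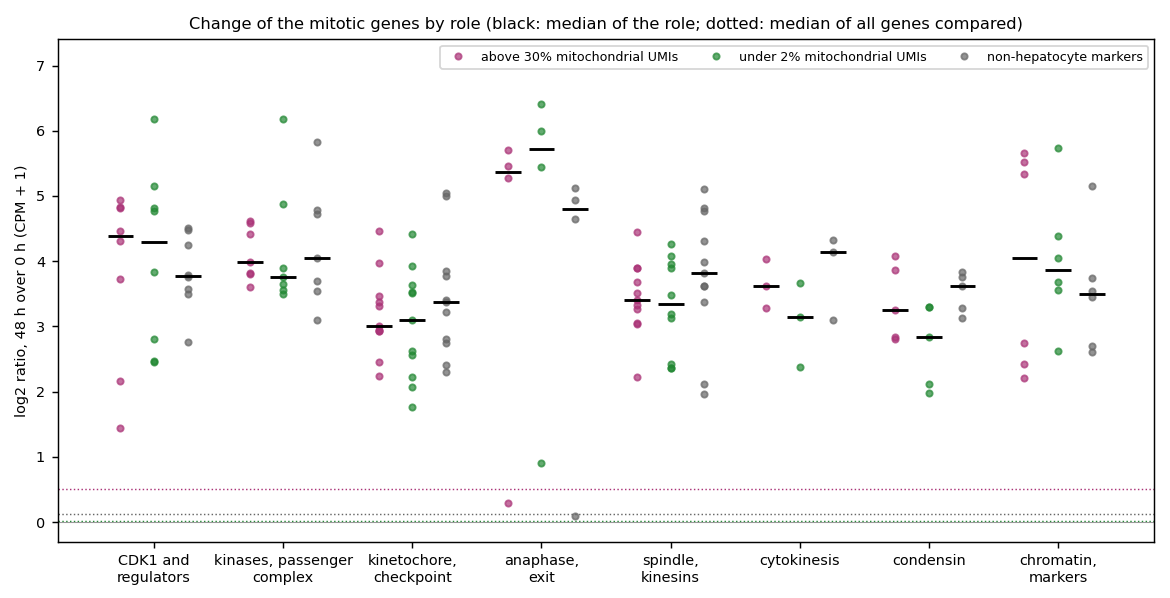
Log2 ratio of PHx48h over 0 h on the CPM + 1 scale for every mitotic gene compared, by role and barcode set; black bars are role medians and dotted lines the medians of all genes compared. Apart from Pttg1 in the anaphase group, every point lies above 1 on this scale, and the anaphase genes have the highest role medians (5.37 in high-mitochondrial barcodes).

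Counting intervals of the fold were compared between sets. On the CPM scale, the interval lay higher in high- than in low-mitochondrial barcodes for 2 of 54 members (Smc4 and Top2a), where 28.7% of 10972 genes did, and lower for 6 (Cks2, Birc5, Spc24, Pttg1, Hmgb2 and H2afx), where 5.08% of genes did. With TMM scaling Smc4 no longer stood apart and Cks1b joined the 6, against 17.3% and 9.96% of genes. Against non-hepatocyte barcodes, the interval in high-mitochondrial barcodes lay higher for 6 of 55 members (Cdk1, Ccna2, Ckap2, Smc4, Mki67 and Top2a), where 21.1% of 9580 genes did, and lower for 3 (Cks1b, Cks2 and Hmgb2), where 3.06% did. With TMM scaling Ckap2, Mki67 and Top2a were left on the higher side and H2afz joined the lower side, against 11.7% and 6.27% of genes. The interval in low-mitochondrial barcodes lay higher than in non-hepatocyte ones for 10 of 54 members, where 11.2% of 10232 genes did. It lay lower for 1 (Kif22), where 6.75% did. With TMM scaling the same members stood apart, against 10.1% and 7.46% of genes. Wide intervals at 0 h limit the comparisons of high-mitochondrial barcodes, since 7 genes had 0 UMIs and many others 1 to 5 UMIs in that set.

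Non-hepatocyte barcodes were grouped by their markers, and the 3 largest classes all had far higher mitotic levels at PHx48h. The mitotic sum was 723 CPM in 248 macrophage-like, 683 CPM in 176 endothelial-like and 411 CPM in 74 stromal-like barcodes at 0 h. At PHx48h it was 5873 CPM in 20 macrophage-like, 7446 CPM in 34 endothelial-like and 7016 CPM in 40 stromal-like barcodes. Hepatocyte markers were present in these barcodes too, at 59258 CPM at 0 h and 32417 CPM at PHx48h, against 145636 and 123684 CPM in high-mitochondrial barcodes. The part of hepatocyte RNA in their mitotic levels was not tested. Conversely, macrophage, endothelial and stromal markers summed to 19.4, 74.1 and 30.4 CPM in PHx48h high-mitochondrial barcodes (25.7, 36.4 and 17.7 CPM at 0 h), and none of 10 T or NK cell markers and 4 B cell markers had a UMI there at PHx48h.

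Lists near the members in function were compared in the same way. Of 60 other mitotic genes, 59 could be compared in high-mitochondrial barcodes and 57 were at least 2-fold higher, with a median log2 ratio of 2.36. DNA replication genes had 29 of 30 at least 2-fold higher and a median of 2.55. The core subunits of the anaphase-promoting complex, the enzyme that Cdc20 and Ube2c serve, were listed together with Ube2s and had 9 of 16 and a median of 1.10. Ube2s, an E2 enzyme of the complex and not a core subunit, was the highest of that list at 2.51. MuvB, B-Myb and E2F regulators, which switch mitotic genes on and off, had 8 of 16 and a median of 1.04, and cohesin, which holds sister chromatids together, had 3 of 9 and a median of 0.46. All genes compared had 27.9% and a median of 0.50, close to the value of cohesin, and all 5 lists had lower medians than the 55 genes. Members and lists were chosen with earlier results of these data known, so their order is a description only. Medians of these lists in low-mitochondrial barcodes were 2.42, 2.71, 0.94, 0.53 and -0.52 in that order, beside 0.02 for all genes.

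Promoters of the members share letters known from cell cycle genes. The cell cycle genes homology region (CHR), bound by the DREAM and MuvB complexes, was searched as TTTGAA or TTCGAA, and the CCAAT box, bound by NF-Y, as CCAAT, both on either strand, in windows of 250 bases before to 50 bases after the start site (RefSeq, GRCm38.p6). Windows were found for 46 of the 55 genes, 48 windows in all. A CHR match lay in 37 of 48 windows (77.1%) against 19.2% of all 32851 windows, a CCAAT match in 38 (79.2%) against 37.4%, and both in 34 (70.8%) against 7.52%. A CHR match within 50 bases of the start site was present in 31 windows (64.6%) against 5.31%. Among the other lists, 34 of 58 windows of other mitotic genes held a CHR match and 4 of 30 windows of DNA replication genes did. A match is a description of the letters and not a measured site. Windows of 4 genes with high ratios (Ube2c, Cdc20, Cdk1 and Top2a) are shown with CHR and CCAAT matches in capitals. They lie at chr2:164769679-164769978, plus strand (Ube2c), chr4:118437294-118437593, minus strand (Cdc20), chr10:69352863-69353162, minus strand (Cdk1) and chr11:99024140-99024439, minus strand (Top2a), each printed 5′ to 3′ along the gene. Their identifiers in that order are ENSMUSG00000001403, ENSMUSG00000006398, ENSMUSG00000019942 and ENSMUSG00000020914.
Ube2c: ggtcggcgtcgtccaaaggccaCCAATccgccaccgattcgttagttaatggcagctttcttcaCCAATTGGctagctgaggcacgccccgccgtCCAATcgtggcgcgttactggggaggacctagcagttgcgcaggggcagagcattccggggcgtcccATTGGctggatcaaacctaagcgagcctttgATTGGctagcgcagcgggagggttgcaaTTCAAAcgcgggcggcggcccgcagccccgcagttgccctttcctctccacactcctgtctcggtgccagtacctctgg
Cdc20: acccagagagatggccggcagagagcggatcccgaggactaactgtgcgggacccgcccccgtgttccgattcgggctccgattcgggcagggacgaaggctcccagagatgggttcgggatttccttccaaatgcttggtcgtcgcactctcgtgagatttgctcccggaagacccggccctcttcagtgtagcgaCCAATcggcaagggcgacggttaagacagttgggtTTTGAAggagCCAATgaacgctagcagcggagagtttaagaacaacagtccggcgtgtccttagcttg
Cdk1: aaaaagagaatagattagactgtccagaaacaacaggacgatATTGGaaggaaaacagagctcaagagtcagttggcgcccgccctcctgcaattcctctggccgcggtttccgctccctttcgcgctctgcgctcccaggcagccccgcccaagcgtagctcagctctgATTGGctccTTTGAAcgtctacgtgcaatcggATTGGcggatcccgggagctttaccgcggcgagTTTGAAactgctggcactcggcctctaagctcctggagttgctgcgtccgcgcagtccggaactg
Top2a: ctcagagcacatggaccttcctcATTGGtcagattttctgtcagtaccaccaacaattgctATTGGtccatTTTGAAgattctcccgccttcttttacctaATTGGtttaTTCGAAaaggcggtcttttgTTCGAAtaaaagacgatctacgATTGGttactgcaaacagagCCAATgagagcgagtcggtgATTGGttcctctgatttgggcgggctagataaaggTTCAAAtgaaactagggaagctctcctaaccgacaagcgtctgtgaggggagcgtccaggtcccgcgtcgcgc
Ube2c held 1 CHR match at 29 bases before its start and 6 CCAAT matches, 2 of which overlap. Cdc20 held 1 CHR match at 18 bases before the start between a pair of CCAAT boxes. In Cdk1 the matches lay 71 and 15 bases before the start, and Top2a had 4 CHR and 6 CCAAT matches. Windows of Birc5, Ccnb1, Cenpe, Cks2, H2afz, Mad2l1, Ncaph, Nuf2, Nusap1, Pttg1 and Tacc3 held no CHR match, and the log2 ratios of these genes ranged from 0.29 (Pttg1) to 4.59 (Birc5) in high-mitochondrial barcodes. For 6 of the 46 genes (Cdca3, Cdca8, Hmgb2, Kif2c, Mad2l1 and Pttg1) the outermost start in the GENCODE annotation lies outside the RefSeq window, so for Mad2l1 and Pttg1 the missing match describes the window of another annotated start.

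Within the PHx48h library, mitotic genes differed between high- and low-mitochondrial barcodes in either direction. The median log2 ratio of high over low was -0.23 for the 55 members, against 0.60 for all 10753 genes compared, of which 32.9% were at least 2-fold higher and 5.14% at least 2-fold lower in high-mitochondrial barcodes. With TMM scaling the medians were -0.79 for the members and 0.06 for all genes, of which 13.4% were at least 2-fold higher, and the directions that follow hold for the CPM scale. Counting intervals placed 23 members lower in high-mitochondrial barcodes, where 16.1% of genes were, and 9 higher, where 48.9% of genes were, and 23 spanned no difference. With TMM scaling 32 members were lower and 2 higher (Foxm1 and Ncapd2), against 28.4% and 24.9% of genes. Cdkn3 was at 27.5 CPM in high- and 92.5 CPM in low-mitochondrial barcodes, 0.297-fold (0.241 to 0.365). Ube2c was at 78.4 and 194 CPM, 0.404-fold (0.355 to 0.459), and H2afz at 411 and 972 CPM, 0.423-fold (0.3996 to 0.4471). At the other end, Foxm1 was at 14.5 and 4.83 CPM, 3.003-fold (1.71 to 5.63), Ncapd2, a condensin subunit, at 18.6 and 7.09 CPM, 2.63-fold (1.64 to 4.39), and Mki67 at 74.7 and 40.3 CPM, 1.86-fold (1.51 to 2.29). Top2a and Cdk1 lay between, at 1.18-fold (0.956 to 1.46) and 0.685-fold (0.589 to 0.797).

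The differences varied with transcript length. By annotated length, members shorter than 1 kb had a median log2 ratio of -0.85, those of 1 to 2 kb -0.65, those of 2 to 3 kb -0.12, those of 3 to 5 kb 0.26 and those above 5 kb 0.23, with 6, 12, 15, 17 and 5 genes. The medians of all genes were -0.75, 0.08, 0.67, 0.94 and 1.15, so that members from 1 kb upward lay below all genes of their length. Spearman's rho with length was 0.58 across the 55 members and 0.55 across 10736 genes, as a description across genes of the same libraries. In the undamaged library the medians were -0.22 for 51 members and 0.04 for 12645 genes, of which 10.2% were at least 2-fold higher and 5.62% lower. Spearman's rho with length there was -0.06 across the members and 0.20 across 12617 genes. By counting intervals 1 member was higher there in high-mitochondrial barcodes (Birc5, which spanned no difference with TMM), where 29.4% of genes were, 8 were lower (Cdk1, Ccna2, Mad2l1, Hmmr, Smc2, Smc4, Top2a and H2afz), where 24.4% of genes were, and 46 spanned no difference or were too low.

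**Figure D3:**
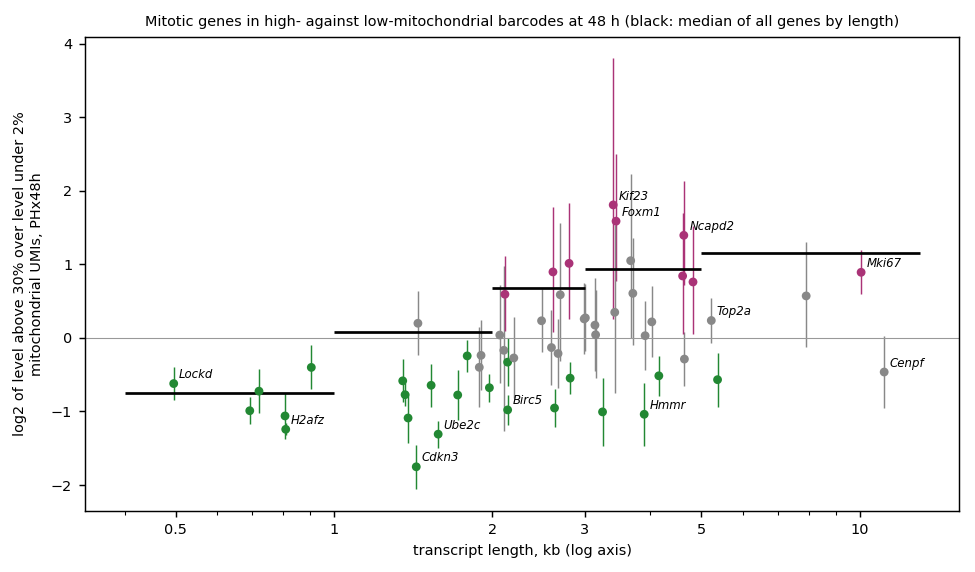
Log2 ratio of the level in high- over low-mitochondrial PHx48h barcodes against transcript length in kb (log axis), with 95% counting intervals; purple genes were higher, green genes lower and grey genes spanned no difference, and black bars are medians of all genes by length. Points are ratios of CPM and bars medians on the log2(CPM + 1) scale. Short genes such as H2afz and Ube2c lie below 0 and several longer ones such as Ncapd2 and Mki67 above it, while most members from 1 kb upward lie under the black bars.

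Across finer steps of the mitochondrial share at PHx48h, the mitotic sum was 3431 CPM below 2%, 3365 CPM at 2 to 10%, 2557 CPM at 10 to 30%, 2927 CPM at 30 to 45%, 1780 CPM at 45 to 60%, 1836 CPM at 60 to 75% and 2169 CPM above 75%. At 0 h it was 300.3, 352, 241, 185, 185 and 161 CPM over the first 6 steps. Every step at PHx48h lay above each of these 6 steps at 0 h. The step above 75% at 0 h held 5 barcodes with 1535 non-mitochondrial UMIs and no member UMI. With an upper bound of 2403 CPM, it is too small to compare. Mki67 was at 40.3 CPM below 2% and 107 CPM at 30 to 45%, and Cdkn3 at 92.5 and 32.1 CPM.

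To ask whether these transcripts occur together in single barcodes, each barcode was thinned to 1000 non-mitochondrial UMIs and shallower ones were left out (1398 of 3863 undamaged high-mitochondrial, 1 of 560 undamaged non-hepatocyte and 4 of 764 PHx48h high-mitochondrial barcodes). At 0 h, 3 or more members were detected in 9 of 2465 high-mitochondrial barcodes (0.365%, 0.167 to 0.692), 84 of 52437 low-mitochondrial barcodes (0.160%, 0.128 to 0.198) and 14 of 559 non-hepatocyte barcodes (2.50%, 1.38 to 4.17). At PHx48h the shares were 184 of 760 (24.2%, 21.2 to 27.4), 281 of 516 (54.5%, 50.05 to 58.8) and 62 of 99 (62.6%, 52.3 to 72.1). At PHx48h, low-mitochondrial barcodes thus held 3 or more members more often than high-mitochondrial ones. At 0 h they did not, and the intervals there overlap. The shares with 10 or more members were 0.263%, 0.388% and 14.1%, from 2, 2 and 14 barcodes. Single genes remained sparse at this depth. Cdk1 had a UMI in 48 of 760 high-mitochondrial barcodes at PHx48h (6.32%) and 4 of 2465 at 0 h (0.162%), and Cdc20 in 59 (7.76%) and 2 (0.0811%). No barcode set at PHx48h lacked these genes and could serve as a background level, and the part of free RNA in these shares was not tested.

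**Figure D4:**
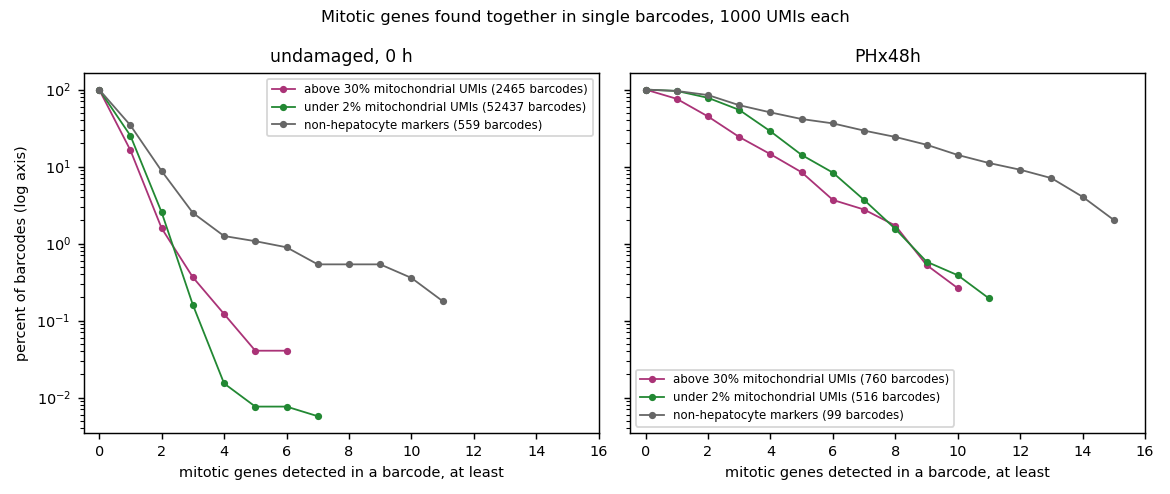
Percent of barcodes (log axis) in which at least the given number of the 55 mitotic genes was detected at 1000 non-mitochondrial UMIs, for undamaged (left) and PHx48h (right) libraries, 1 line per barcode set. At 0 h the high- and low-mitochondrial lines fall below 1% at 3 genes, and at PHx48h the low-mitochondrial line starts above the high-mitochondrial one and meets it near 8 genes while non-hepatocyte barcodes reach 15 genes.

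How evenly the transcripts were spread differed between the sets at PHx48h. The variance of summed member UMIs per barcode over its mean, which is 1 when every barcode has the same level, was 2.16 in high-mitochondrial, 1.30 in low-mitochondrial and 4.82 in non-hepatocyte barcodes. No member was detected in 184 of 760 high-mitochondrial barcodes, in 21 of 516 low-mitochondrial and in 4 of 99 non-hepatocyte barcodes. The tenth of barcodes with the most member UMIs held 34.1%, 23.1% and 30.4% of them. Detections of both genes of a pair were summed over all pairs of members, so a barcode counts once for each pair it held. They numbered 1701 in the high-mitochondrial set, 1.52 times the 1118 that the product of the genes' shares gives. In low-mitochondrial barcodes 2138 were seen, 1.09 times the product (1961), and in non-hepatocyte barcodes 1695, 1.48 times (1148). Without Hmgb2, H2afz and H2afx, the chromatin genes also present at 0 h, these ratios were 1.71, 1.14 and 1.67. Pairs within a role and pairs across roles had like ratios in high-mitochondrial barcodes, 1.502 and 1.525. Uneven spread was also seen at 0 h. There the pair ratios were 2.17 in high-mitochondrial, 1.07 in low-mitochondrial and 3.88 in non-hepatocyte barcodes, from 75, 1583 and 238 such detections of both genes. A barcode with many members adds many pairs, and 1 undamaged non-hepatocyte barcode each held 9, 10 and 11 members. The high-mitochondrial ratio at 0 h was 1.21 when thinned to 500 UMIs and 1.05 at 2000 UMIs. The variance over the mean at 0 h was 1.22, 1.06 and 2.53.

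The pairs seen together most often in high-mitochondrial barcodes all involved H2afz, the most widely detected member. Spc24 and H2afz met in 39 barcodes (product 31.1), Cdc20 and H2afz in 25 (19.1), and Cks2, Cdca3 and Birc5 met H2afz in 23, 22 and 19. Among pairs in at least 10 barcodes, the highest ratios were for Cdc20 with Mki67, in 12 barcodes where the product is 4.11 (2.92 times), and Cdc20 with Cdca3, in 10 where it is 4.27 (2.34 times). In low-mitochondrial barcodes Cdc20 and Mki67 met in 0 barcodes (product 1.30) and Cdc20 and Cdca3 in 6 (product 5.62). Ccnb1 with H2afz (15 barcodes, 1.85 times), Top2a with H2afz (15, 1.54 times) and Spc24 with Mki67 (10, 1.49 times) followed. These pairs were picked for their counts and are a description.

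Seen from each gene, high-mitochondrial barcodes that held it also held more of the rest. Barcodes with Top2a had a mean of 3.83 other members against 1.64 in barcodes without it, a ratio of 2.34 over 30 barcodes. For Cdc20 it was 3.20 against 1.56 (2.05, 59 barcodes), for Mki67 3.09 against 1.59 (1.94, 53 barcodes) and for Cdk1 2.71 against 1.63 (1.66, 48 barcodes). Spc24 (1.03, 96 barcodes) and Pttg1 (0.945, 25 barcodes) had ratios close to 1. Of 19 members found in at least 20 high-mitochondrial barcodes, 18 had a ratio above 1, with a median of 1.497. In low-mitochondrial barcodes 18 of 21 were above 1 with a median of 1.08 and a highest value of 1.27 (Top2a).

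Other mitotic genes, which were not used to count members, were higher in high-mitochondrial barcodes with more members. In high-mitochondrial PHx48h barcodes with 0, 1 to 2, 3 to 4 and 5 or more members, the other mitotic genes summed to 516 (477 to 556), 764 (731 to 799), 1319 (1233 to 1410) and 2110 (1993 to 2232) CPM. In low-mitochondrial barcodes they stood at 686 (546 to 852), 664 (621 to 710), 799 (749 to 851) and 1190 (1094 to 1291) CPM, and in non-hepatocyte barcodes at 339 (147 to 669), 806 (685 to 943), 1228 (1047 to 1432) and 3300.5 (3098 to 3513) CPM. DNA replication genes in high-mitochondrial barcodes stood at 579, 763, 1029.6 and 1384 CPM, in low-mitochondrial barcodes at 904, 850, 1002 and 1416 CPM and in non-hepatocyte barcodes at 1061, 1199, 2358 and 2203 CPM. Hepatocyte markers were abundant in the barcodes richest in mitotic genes. Their sum was 113214 CPM with 5 or more members and 129498 CPM with none, and no high-mitochondrial barcode kept for thinning lacked Alb, which encodes albumin. Presence of Alb does not set hepatocytes apart here. The 3 non-hepatocyte PHx48h barcodes with the most members held 64, 74 and 87 Alb UMIs. The endothelial marker sum was 49.9, 71.2, 152 and 52.4 CPM over the same steps, and median non-mitochondrial depth before thinning was 4845, 4282, 3588 and 5614 UMIs.

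**Figure D5:**
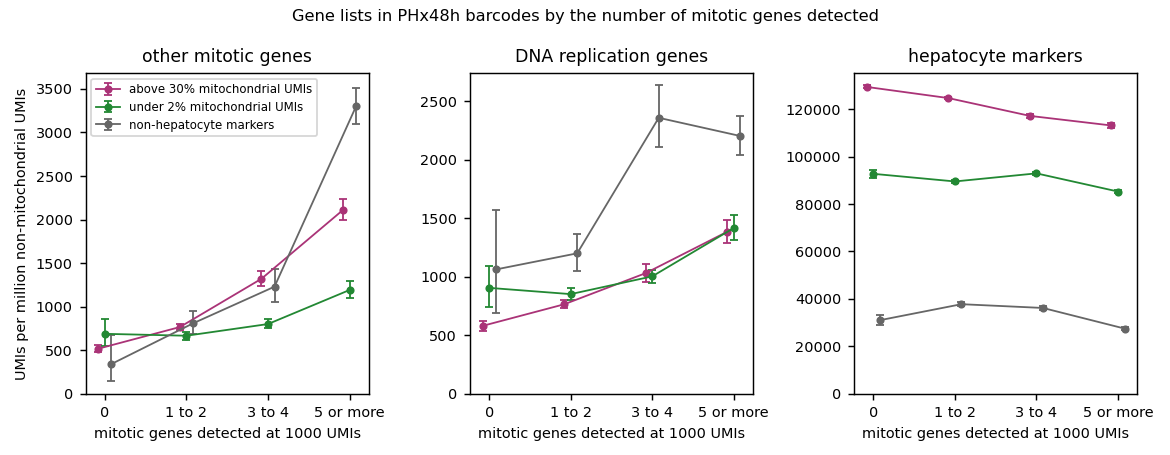
Summed level of other mitotic genes, DNA replication genes and hepatocyte markers (CPM of non-mitochondrial UMIs, 95% counting intervals) in PHx48h barcodes with 0, 1 to 2, 3 to 4 and 5 or more mitotic genes at 1000 UMIs. Other mitotic genes go from 516 to 2110 CPM in high-mitochondrial barcodes and from 686 to 1190 CPM in low-mitochondrial ones, while hepatocyte markers lie between 85315 and 129498 CPM in both.

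With all UMIs kept, single barcodes showed most of the list at once. At PHx48h, 62 of 764 high-mitochondrial barcodes had 20 or more members and 30 had 30 or more, as had 32 and 5 of 516 low-mitochondrial and 43 and 19 of 99 non-hepatocyte barcodes. In high-mitochondrial barcodes the most was 48 of the 55 genes, reached by 2 barcodes. The deeper of them held 199 member UMIs, among 30750 non-mitochondrial UMIs of which 1400 were Alb. It had 9 UMIs of Cdk1, 3 of Ccnb1, 10 of Cdc20, 14 of Ube2c, 7 of Mki67 and 3 of Top2a. The low-mitochondrial barcode with the most held 40 genes in 163 UMIs, with 16 of Ube2c, 40 of H2afz and 2 of Mki67, and the non-hepatocyte one, stromal-like, 46 genes in 308 UMIs. At 0 h the most in 3863 high-mitochondrial barcodes was 8 genes in 11 UMIs, and in 52437 low-mitochondrial barcodes 14 genes in 18 UMIs. These 0 h barcodes were far shallower, with 1867 and 2079 non-mitochondrial UMIs against 30750 and 26225 in those named at PHx48h. After thinning to equal depth, the most in high-mitochondrial barcodes was 6 genes at 0 h and 10 at PHx48h. In low-mitochondrial barcodes it was 7 and 11. With all UMIs kept, however, an undamaged macrophage-like barcode of the non-hepatocyte set held 32 members in 73 UMIs. An endothelial-like one held 30 in 58 UMIs and another macrophage-like one 24 in 47 UMIs. Their depths were 5653, 5189 and 4250 non-mitochondrial UMIs. The 10 non-hepatocyte barcodes with the most member UMIs held 27.7% of all member UMIs in that set at 0 h and 33.8% at PHx48h, so much of the non-hepatocyte level rests on few barcodes. At PHx48h the top 10 barcodes held 14.5% in the high-mitochondrial and 9.09% in the low-mitochondrial set. These shares cannot be compared between sets, since 10 barcodes are a smaller part of 764 or 516 than of 99. For an equal part, the 10% of thinned PHx48h barcodes with the most member UMIs, the shares were unlike in order. They were 34.1% in high-mitochondrial, 23.1% in low-mitochondrial and 30.4% in non-hepatocyte barcodes.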

How the data were processed

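Single-cell 3′ libraries (10X Genomics, v2 chemistry) of hepatocyte preparations were processed by the authors with Cell Ranger to UMI counts per gene and barcode; mm10 is named in the submitters' processing notes, and the version and annotation are not given in the sources used here. The study's own analysis left out cells of high mitochondrial content and possible doublets; the deposited counts still hold high-mitochondrial barcodes, all barcodes were used here, and no doublet caller was run. Counts were summed per library and barcode set, scaled to non-mitochondrial UMIs, and compared as log2(CPM + 1) for genes with at least 10 UMIs over both libraries. No test was made, because each group is 1 library and cells are not replicates. Sums carry exact Poisson intervals, shares exact Clopper-Pearson intervals and folds exact conditional binomial intervals, all at 95%; a level of 0 UMIs was set to 3 UMIs for a fold.

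The members and gene lists were chosen with earlier results of these data known. Genes were named by rule: the 2 highest and the lowest log2 ratio of each role in high-mitochondrial barcodes, with Mki67, Top2a and Cdk1 and any member with a ratio below 0 (none), and the 5 pairs most often together and the 5 with the highest ratio among pairs in at least 10 barcodes; other genes named were chosen after their values were seen, as were the breakdowns by transcript length and by mitochondrial share and the interval comparisons under TMM and size factor scaling. Gene positions and transcript lengths came from GENCODE on GRCm38, and promoter windows from RefSeq. Thinning used a fixed seed. Ratio and co-detection steps were tested on simulated counts. Alternatives covered the added CPM, scaling by edgeR (4.0.16) TMM factors and DESeq2 (1.42.0) size factors, UMI filters, set thresholds, depth and thinning. Python (3.11.15), numpy (2.4.6), scipy (1.17.1) and R (4.3.3) were used.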

Additional observations from a re-analysis of the deposited data

Results flagged for a closer look

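Birc5, which encodes survivin, differed between high- and low-mitochondrial barcodes in opposite directions in the libraries. At 0 h it was at 1.91 CPM (11 UMIs) in high- and 0.893 CPM (70 UMIs) in low-mitochondrial barcodes, 2.14-fold (1.02 to 4.06), and at PHx48h at 68.8 and 136 CPM, 0.508-fold (0.439 to 0.586), a log2 ratio of -0.97. The undamaged value rests on 11 UMIs, its interval nearly reaches 1 and spans it with TMM scaling (2.00-fold, 0.955 to 3.801), and with 1 library per group the difference was not tested.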

How the results depend on the processing

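Each group is 1 library, so no replicate could be left out and counting intervals understate the error between animals. No paired analysis was possible because each group holds 1 library and no test was made. In 2023 of 2028 values of single genes under an alternative, the sign was kept above 0; the other 5 are all Pttg1, in high-mitochondrial barcodes at -0.253 under TMM, -0.255 under size factors and -0.12 above 50% mitochondrial UMIs, and in non-hepatocyte barcodes at -0.0560 under TMM and -0.0375 under size factors. The median log2 ratio of the members in high-mitochondrial barcodes was 4.28 with 0.5 CPM added, 2.05 with 5 CPM added, 3.10 under TMM, 3.09 under size factors and 5.18 with nothing added and 0 set to 3 UMIs; TMM brought the median of all genes from 0.50 to 0.01. In low-mitochondrial barcodes it was 2.25 with 5 CPM and 4.95 with nothing added. In non-hepatocyte barcodes it was 2.94 with 5 CPM, 4.08 with nothing added and 4.01 without the deepest 5% of barcodes, and 30 members were at least 2-fold higher when 50 UMIs were required, since fewer genes then pass. For high over low mitochondrial share, the PHx48h median was -0.79 under TMM, -0.85 under size factors and -0.51 above 50%, and the undamaged median -0.0775 with 5 CPM, -0.39 above 50% and -0.43 with nothing added. The ratio of pairs at PHx48h in high-mitochondrial barcodes was 1.602 with a 1% marker share, 1.45 above 50%, 2.02 without thinning and 1.71 without Hmgb2, H2afz and H2afx; in low-mitochondrial barcodes 1.14 without thinning, 1.15 at 500 UMIs and 1.14 without these 3 genes; and in non-hepatocyte barcodes 1.61, 1.37 without thinning, 1.56 at 500 UMIs, 1.67 without these genes and 1.59 without barcodes found in both libraries, an alternative chosen after seeing the data. The percent of barcodes with 3 or more members depends on depth. Without thinning, at 2000 UMIs, at 500 UMIs and without these 3 genes it was 81.9, 51.2, 8.64 and 18.2 in PHx48h high-mitochondrial, 99.8, 87.4, 18.4 and 33.9 in low-mitochondrial and 99.0, 82.8, 40.4 and 46.5 in non-hepatocyte barcodes (51.9 with a 1% marker share). At 0 h it was 0.0264 at 500 UMIs in high-mitochondrial barcodes, 0.519, 1.25, 0.0286 and 0.0381 in low-mitochondrial barcodes, and 12.1, 7.55 and 0.714 for the first 3 settings in non-hepatocyte barcodes. Of the main comparisons, 141 values stayed within the limits set for a shift, which does not mean they were identical, and 50 moved. Among all remaining values, which include those of single genes, 622 moved, 1458 stayed within the limits and 5 changed sign. Apart from settings named here, the cause of a shift was not tested.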
